A study of Mus musculus with 19 samples.

Results

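The library studied here was made from the brain of wild-type (WT) C57BL/6J mice, and it was compared with 6 other tissue libraries of the same strain and genotype: small intestine, liver, heart, tibialis anterior muscle, and brown and white adipose tissue. It was chosen by its column label in the table of 7 tissues, and it is 1 of the 19 libraries of the series. The mice behind these tissues were male and no treatment is given for them. The ages stated for chow-fed mice in the study run from 2 to 8 months, and sequencing is stated to have used 2 or 3 independent animals for each genotype or treatment. How many mice, or whether a pool, stood behind each tissue library is not stated in the sources used here, nor is the part of the brain that was taken. In the study's methods for RNA isolation and qPCR, RNA of white adipose tissue was isolated with a commercial kit. RNA of brain and the other 5 tissues was isolated with TRIzol. If this also holds for these libraries, kit and tissue cannot be told apart for white adipose tissue. The study used the 7 tissues to see where a muscle-secreted factor is expressed. Each tissue had 1 library, so every difference below is a description of these libraries, with no replicate error and no test. The values are FPKM, which count fragments per kilobase of exon and scale them to the mapped fragments of the library.

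Nerve cells signal by releasing transmitter from synaptic vesicles. The vesicles fuse with the plasma membrane through SNARE proteins, a family that also drives fusion at the membranes of every other cell. The receiving side holds ligand-gated ion channels on a protein scaffold, and voltage-gated channels carry the signal along the axon. Oligodendrocytes wrap axons in myelin, astrocytes take up transmitter and potassium, and microglia are the resident macrophages. The brain lives mainly on glucose and is known to oxidize little fatty acid.

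The 3 markers given for brain stood far above the other libraries. *Snap25*, the SNARE protein of the nerve terminal, had 4072 FPKM in brain, 6.91 in small intestine, 0.0882 in brown adipose tissue and 0.0597 in liver, and is listed at 0 in tibialis anterior muscle, heart and white adipose tissue. It is listed as ENSMUSG00000027273 and spans bases 136713453 to 136782428 of chromosome 2 (plus strand, GRCm38). *Mbp*, a structural protein of myelin, had 353 FPKM in brain, 11.0 in brown adipose tissue, 9.13 in small intestine, 7.99 in white adipose tissue, 1.61 in tibialis anterior muscle, 0.407 in heart and 0.0919 in liver. *Gfap*, the intermediate filament of astrocytes, had 60.5 FPKM in brain, 0.279 in heart, 0.245 in small intestine, 0.106 in tibialis anterior muscle and 0.102 in brown adipose tissue, and is listed at 0 in liver and white adipose tissue. The log2 ratio of brain to the highest other tissue, with 1 added to each FPKM, was 9.01 for *Snap25*, 4.88 for *Mbp* and 5.59 for *Gfap*. The values of all 3 thus followed the brain label.

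Markers of the other sampled tissues were low or at 0 in the brain library. The hepatocyte markers *Alb*, *Apoa1*, *Apob*, *Fgb*, *Cyp2e1* and *Serpina1c* had between 0.00421 and 0.271 FPKM in brain. *Adipoq*, the hormone of fat cells, had 0.0447 FPKM in brain against 1699 in white adipose tissue. *Cfd*, *Cidec* and the enterocyte gene *Fabp2* are listed at 0 in brain, as are the heart genes *Nppa*, *Actc1* and *Myl7*. The enterocyte genes *Vil1*, *Lgals4* and *Krt20* had 0.631, 1.58 and 0.119 FPKM. Low levels of skeletal muscle genes were present: *Tnnt3*, a subunit of fast troponin, had 24.5 FPKM in brain against 27391 in tibialis anterior muscle, and *Acta1*, skeletal muscle actin, had 8.56 against 11741. *Tnnt3*, *Acta1*, *Ckm*, *Mylpf* and *Myh4* stood in brain at between 0.0414% and 0.0896% of their muscle level, and *Tnnt2* stood at 0.120% of its heart level. *Pvalb*, which both fast muscle and a class of inhibitory neurons express, had 24.7 FPKM in brain, 0.769% of its muscle level. The source of these muscle reads was not tested. Hemoglobin genes, markers of blood, were lower in brain than in 4 of the other tissues for *Hba-a1*, which had 106 FPKM in brain and between 13.3 and 698 elsewhere.

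**Figure D1:**
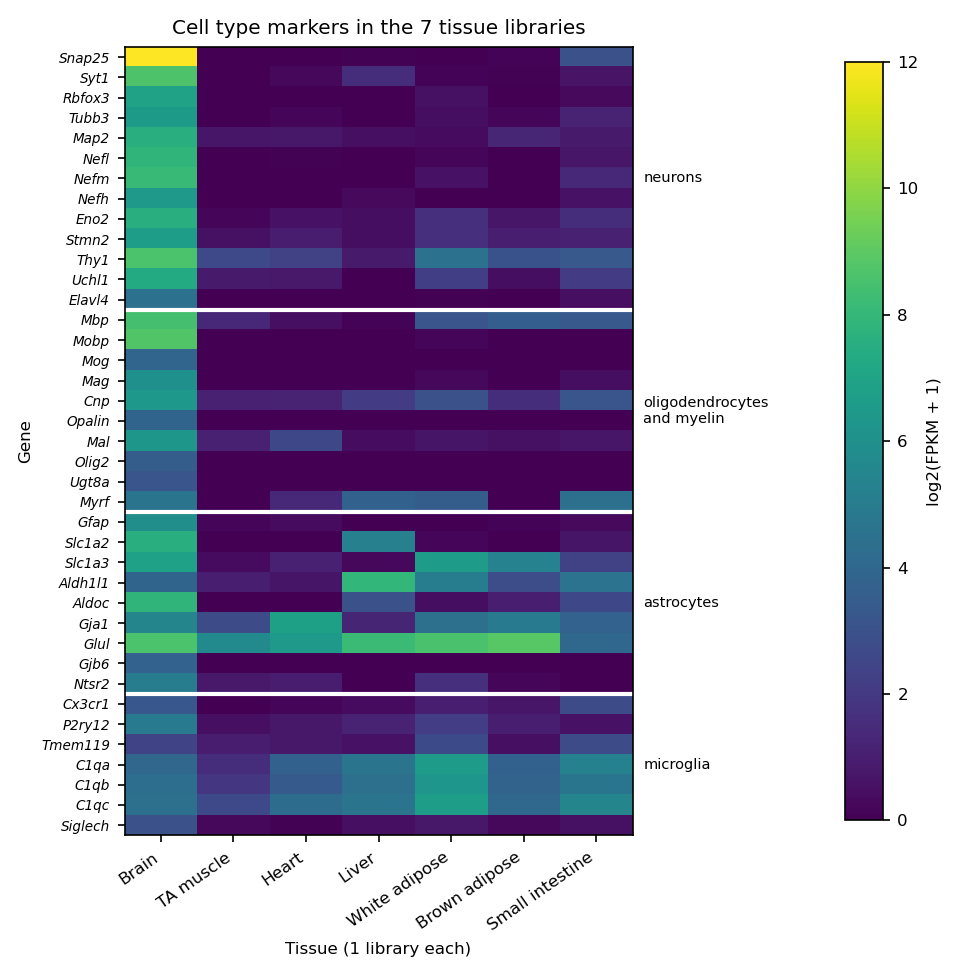
Levels of the marker genes named in the text, of neurons, oligodendrocytes and myelin, astrocytes and microglia in the 7 libraries, as log2(FPKM + 1) on a color scale from 0 to 12, with genes in rows and tissues in columns. Neuron and myelin genes are bright in the brain column and mostly dark elsewhere, while the microglia genes *C1qa*, *C1qb*, *C1qc* and *Tmem119* are brighter in white adipose tissue.

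A gene was called higher in brain when its FPKM + 1 was at least 4-fold that of the highest of the other 6 libraries, and lower when it was at least 4-fold below the lowest. Among the 18327 genes with at least 1 FPKM in at least 1 of the 7 libraries, 1421 were higher in brain (7.75%) and 33 were lower (0.180%). By the same rule 932 genes were higher in small intestine, 468 in liver, 188 in white adipose tissue, 142 in muscle, 80 in heart and 27 in brown adipose tissue. White and brown adipose tissue, and muscle and heart, share many genes, and a gene high in both of such a pair cannot be called by this rule. Brain also had the most genes at 1 FPKM or more, 13795 against between 9542 in muscle and 13228 in small intestine. The 1421 genes held 17.6% of the summed FPKM of brain and between 0.156% in liver and 0.680% in white adipose tissue. In 888 of them every other tissue was below 1 FPKM, and in 192 every other tissue is listed at 0. Their median level in brain was 18.7 FPKM, and 153 had 100 FPKM or more.

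All 13 pan-neuronal marker genes were higher in brain, against 7.75% of all genes tested. Their median log2 ratio was 5.98, against -0.82 over all genes tested. *Thy1*, a surface protein of neurons and of some lymphocytes and fibroblasts, had 392 FPKM in brain and was second in white adipose tissue with 22.1. *Tubb3*, *Stmn2*, *Uchl1* and *Elavl4* had 93.0, 105, 159 and 22.3 FPKM in brain and at most 3.68 elsewhere.

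Both main transmitter classes of neurons were present. *Slc17a7* and *Slc17a6*, which load glutamate into vesicles mainly in cortex and in subcortical regions respectively, had 141 and 31.2 FPKM in brain. 7 of 8 glutamatergic genes were higher, against 7.75% of all genes tested. The GABA-synthesizing enzymes *Gad1* and *Gad2* had 74.9 and 39.0 FPKM, and the vesicular GABA transporter *Slc32a1* 30.9. These 3 were at or near 0 elsewhere, at most at 0.108 FPKM. 8 of 11 GABAergic genes were higher in brain, and the others were *Pvalb*, *Vip* and *Lhx6*. Genes of monoamine and acetylcholine neurons had low levels. 3 of 8 tested passed the limit, against 7.75% of all genes tested, and brain was the highest library for 6, against 29.7%. *Chat*, which makes acetylcholine, had 1.72 FPKM in brain and 0.616 in small intestine. *Slc6a4*, the serotonin transporter, had 2.34 in brain and 16.4 in small intestine, where the epithelium also uses it. *Dbh* and *Slc6a2* of noradrenergic neurons had 0.150 and 0.0664 FPKM in brain.

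The only replicate libraries of the series are of other mice and other tissues. Among the 3 libraries of brown adipose tissue from WT mice kept at 8 °C for 1 week, the highest and the lowest differed by a median of 0.30 on the log2(FPKM + 1) scale, and by 4-fold or more in 46 of 11504 genes (0.400%). Among the 3 libraries of inguinal white adipose tissue it was 100 of 12479 (0.801%). The spread between brain libraries was not measured. The summed FPKM was 393682 in brain and between 420150 and 711437 in the other libraries, and mitochondrially encoded genes took 21.8% of it in brain but 53.6% in heart and 53.8% in brown adipose tissue. Such abundant genes lower the FPKM of all others, and rescaling to a common sum (TPM) does not undo this. The levels were also rescaled both to TPM and by the median ratio over genes. Relative to brain, TPM multiplied heart by 0.582 and brown adipose tissue by 0.553. Median-ratio scaling multiplied them by 1.58 and 1.21. The median over all genes tested of the log2 ratio of brain to the median of the other 6 tissues was 0.31, 0.85 as TPM and 0.11 under median-ratio scaling. Read counts are not given, and the depth behind an FPKM is therefore unknown. In bulk tissue, more cells of a type and more RNA per cell cannot be told apart.

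**Figure D2:**
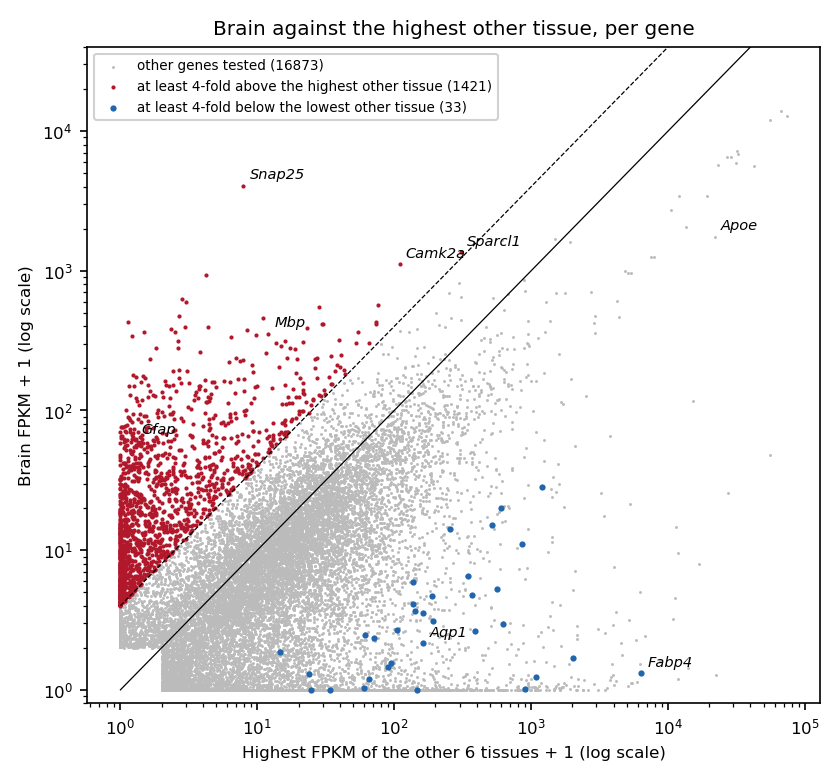
FPKM + 1 of each gene tested in brain (vertical axis) against the highest of the other 6 tissues (horizontal axis), both on log scales, with the line of equal levels (solid) and the 4-fold limit (dashed). The 1421 genes higher in brain lie above the dashed line with *Snap25* at the top, and the 33 genes lower in brain lie at the lower right.

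*Snap25* had the highest brain level of all genes called higher, and the 10 highest ended with the vesicle protein *Syp*. After *Snap25* came *Sparcl1*, a secreted matrix protein that astrocytes make, with 1356 FPKM, and *Camk2a*, a kinase of excitatory synapses, with 1117. *Sparcl1* was also well above 0 in every other library, from 5.92 FPKM in liver to 304 in white adipose tissue, and its log2 ratio was 2.15. The next were *Tubb4a*, a tubulin, with 929.6 FPKM, *Kif5a*, a motor of axonal transport, with 630.0, and *Nrgn*, a calmodulin-binding protein of dendrites, with 597. *Cpe* had 570.4 FPKM, *Aplp1* 546, *Hpca* 472 and *Syp* 458. By the log2 ratio among genes with at least 20 FPKM in brain, *Snap25* at 9.01 was followed by the myelin gene *Mobp* at 8.57, the complexin *Cplx1* at 8.12, *Stmn3* at 7.95, *Kif5a* at 7.80, *Tubb4a* at 7.80, *Nrgn* at 7.64, *Hpca* at 7.45, *Sncb* at 7.36 and *Vsnl1* at 7.29. *Hpca* and *Vsnl1* encode calcium sensors of neurons, and *Sncb* encodes a synuclein. Exons of *Hpca* overlap those of *Tmem54*, and reads were assigned without strand.

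Of the 26 genes of the synaptic vesicle cycle, 25 were higher in brain by the 4-fold rule, against 7.75% of all genes tested, and brain was the highest library for all 26, against 29.7% of all genes tested. Their median log2 ratio to the highest other tissue was 4.54, against -0.82 over all genes tested. The calcium sensor *Syt1* had 397 FPKM in brain and at most 1.95 elsewhere. *Stx1a*, a plasma membrane SNARE partner of *Snap25*, had 76.1 FPKM in brain and at most 2.99 elsewhere. *Vamp2*, the SNARE of the vesicle, had 364 FPKM in brain, 52.9 in white adipose tissue, 43.0 in brown adipose tissue, 32.9 in small intestine, 22.992 in heart, 14.5 in liver and 14.2 in tibialis anterior muscle. *Vamp1* was the member outside the limit, with 36.5 FPKM in brain, 9.07 in white adipose tissue and a log2 ratio of 1.90. The endocytic GTPase *Dnm1* had 412 FPKM, the vesicle phosphoprotein *Syn1* 177, the synuclein *Sncb* 384, and the active zone scaffolds *Bsn* and *Pclo* 21.1 and 23.9. *Nsf*, the ATPase that takes SNARE complexes apart in all cells, was higher in brain as well, with 143 FPKM against at most 11.8.

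The SNARE genes of other membranes did not share that pattern. 1 of 18 was higher in brain, near the 7.75% of all genes tested, and the median log2 ratio was -0.48, against -0.82 over all genes tested. *Snap23*, the paralog of *Snap25* in non-neuronal cells, had 13.0 FPKM in brain, 67.2 in white adipose tissue, 57.1 in small intestine, 43.1 in liver, 34.6 in heart, 26.2 in brown adipose tissue and 25.3 in tibialis anterior muscle, so that brain was the lowest library for it while it was the highest for *Snap25*. *Vamp8*, which works in endosomes and in secretion of other cells, had 14.6 FPKM in brain and 198 in liver, and *Vamp5*, a muscle member, had 1.00 in brain and 40.7 in tibialis anterior muscle. *Vamp4* of the Golgi had 40.3 FPKM in brain and 17.7 in white adipose tissue. *Snap47* was the member called higher, with 126 FPKM in brain and 28.3 in liver, and the call was lost under median-ratio scaling, where none of the 18 genes was higher.

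**Figure D3:**
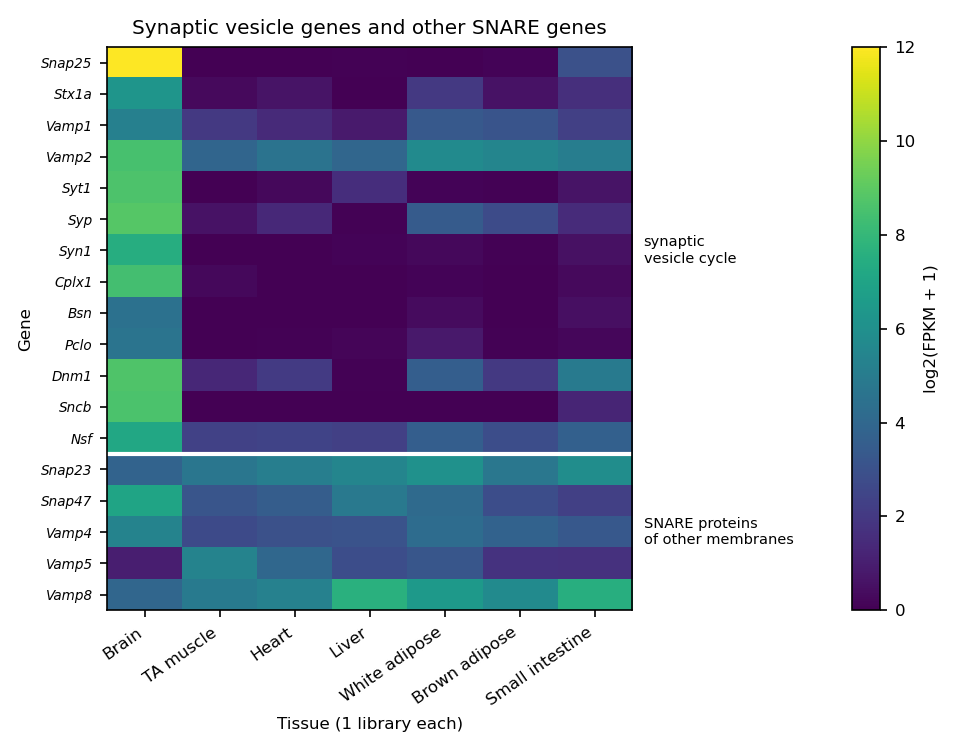
Levels of the synaptic vesicle genes and of the SNARE genes of other membranes that the text names, in the 7 libraries, as log2(FPKM + 1) on a color scale from 0 to 12, with genes in rows and tissues in columns. The brain column is bright for the upper block, with *Snap25* at 4072 FPKM. In the lower block it is the brightest column for *Snap47* and *Vamp4* and the darkest for *Snap23*, *Vamp5* and *Vamp8*.

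On the postsynaptic side, 16 of 20 scaffold and adhesion genes were higher in brain, against 7.75% of all genes tested. Their median log2 ratio was 3.51, against -0.82 over all genes tested. *Dlg4*, the main scaffold of excitatory synapses, had 219.9 FPKM in brain and at most 5.26 in another tissue. *Camk2a* was second in tibialis anterior muscle with 108 FPKM, and *Camk2b* had 194 in brain and 41.9 in muscle. The call of *Camk2b* was lost under median-ratio scaling. The adhesion genes *Nrxn2*, *Nrxn3* and *Nlgn1* had 65.5, 26.2 and 12.7 FPKM. The 4 members outside the limit were *Dlg3*, *Shank3*, *Homer1* and *Baiap2*. *Dlg3* reached 21.8 FPKM in small intestine against 25.9 in brain, and *Shank3* had 10.5 in white adipose tissue against 25.7 in brain.

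Ionotropic receptors of glutamate and GABA had nearly all of their signal in the brain library. 25 of the 26 genes tested were higher in brain, against 7.75% of all genes tested. The summed FPKM of the list was 731 in brain and at most 11.5 in another tissue. The AMPA receptor subunits *Gria1*, *Gria2*, *Gria3* and *Gria4* had 55.6, 100.03, 38.2 and 33.9 FPKM in brain. The obligatory NMDA receptor subunit *Grin1* had 93.9 FPKM, with 15.7 for *Grin2b*, 10.3 for *Grin2a*, 8.77 for *Grin2d* and 5.45 for *Grin2c*. Among GABA receptor subunits *Gabra3* had 24.2 FPKM, *Gabra5* 15.7 and *Gabrg1* 6.74. *Gabra5* and *Gabrg1* are listed at 0 in all other tissues. *Grik4* had 2.71 FPKM in brain and missed the limit with a log2 ratio of 1.78, although no other library exceeded 0.0833 FPKM. *Gabra6* is listed at 0 in all 7 libraries and was not tested.

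Families of voltage-gated channels were divided between brain and muscle. 4 of 11 sodium channel genes were higher in brain, against 7.75% of all genes tested, and brain was the highest library for 7, against 29.7%. The 4 were the pore subunits *Scn1a*, *Scn2a* and *Scn8a* of central neurons with 19.6, 31.4 and 33.4 FPKM, and the auxiliary subunit *Scn2b* with 60.3. *Scn4a*, the pore subunit of skeletal muscle, had 55.1 FPKM in muscle and 0.00887 in brain. The auxiliary subunit *Scn4b* was shared, with 37.0 FPKM in brain and 55.5 in muscle. 14 of 25 potassium channel genes were higher in brain, and brain was the highest library for 19. *Kcnq3*, a channel subunit of neurons, had 15.3 FPKM in brain and at most 0.0522 elsewhere. *Kcnc1* and *Kcnc4* of fast-spiking cells had 37.3 and 12.8 FPKM in brain and 15.4 and 21.8 in tibialis anterior muscle, and *Kcnh2*, a repolarizing channel of the heart, had 12.9 in brain and 14.7 in heart. *Kcna1* and *Kcna2*, channels of the axon, had 20.1 and 12.5 FPKM in brain. *Kcnq1* is listed at 0 in brain and had 18.1 FPKM in small intestine and 7.97 in heart. 14 of 21 calcium channel genes were higher in brain, and brain was the highest library for 16. *Cacna1a*, the pore of the channel that triggers transmitter release, had 43.5 FPKM in brain, and *Cacna1b*, another presynaptic pore, 10.2, while *Cacna1s* and *Cacng1* of skeletal muscle had 161 and 85.7 in muscle and 0.195 and 0.0940 in brain. *Cacng2* and *Cacng3*, auxiliary subunits of AMPA receptors, had 18.7 and 24.2 FPKM in brain and are listed at 0 in all other tissues.

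The sodium-potassium pump restores the ion gradients that these channels use. Of its 6 tested genes, 1 was higher in brain, against 7.75% of all genes tested, and 2 with TPM, against 2039 of 18327. Brain was the highest library for 2, against 29.7%. *Atp1b1*, the common beta subunit, was about as high in brain as in small intestine, with 857 and 885 FPKM. *Atp1b2*, a beta subunit of glia, had 298 FPKM in brain and 79.5 in muscle, and its log2 ratio of 1.89 was just short of the limit.

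Of the 25 genes of the neuronal cytoskeleton and its motors, 20 were higher in brain, against 7.75% of all genes tested. Their median log2 ratio was 5.34, against -0.82 over all genes tested. The neurofilament genes *Nefl*, *Nefm* and *Nefh* had 231, 279 and 90.1 FPKM in brain and at most 1.64 in any other library. *Nefl* and *Nefm* overlap in their exons. The microtubule proteins *Map1a*, *Map2*, *Map1b* and *Mapt* had 225, 191, 137 and 92.8 FPKM, and *Mapt* also had 19.3 in muscle and was not past the limit under median-ratio scaling. *Tuba1a*, an alpha tubulin, was nearly as high in white adipose tissue (235 FPKM) as in brain (254). *Tuba4a* was highest in muscle, with 42.5 FPKM against 30.1 in brain. *Dcx*, a marker of newborn neurons, had 3.12 FPKM in brain.

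**Figure D4:**
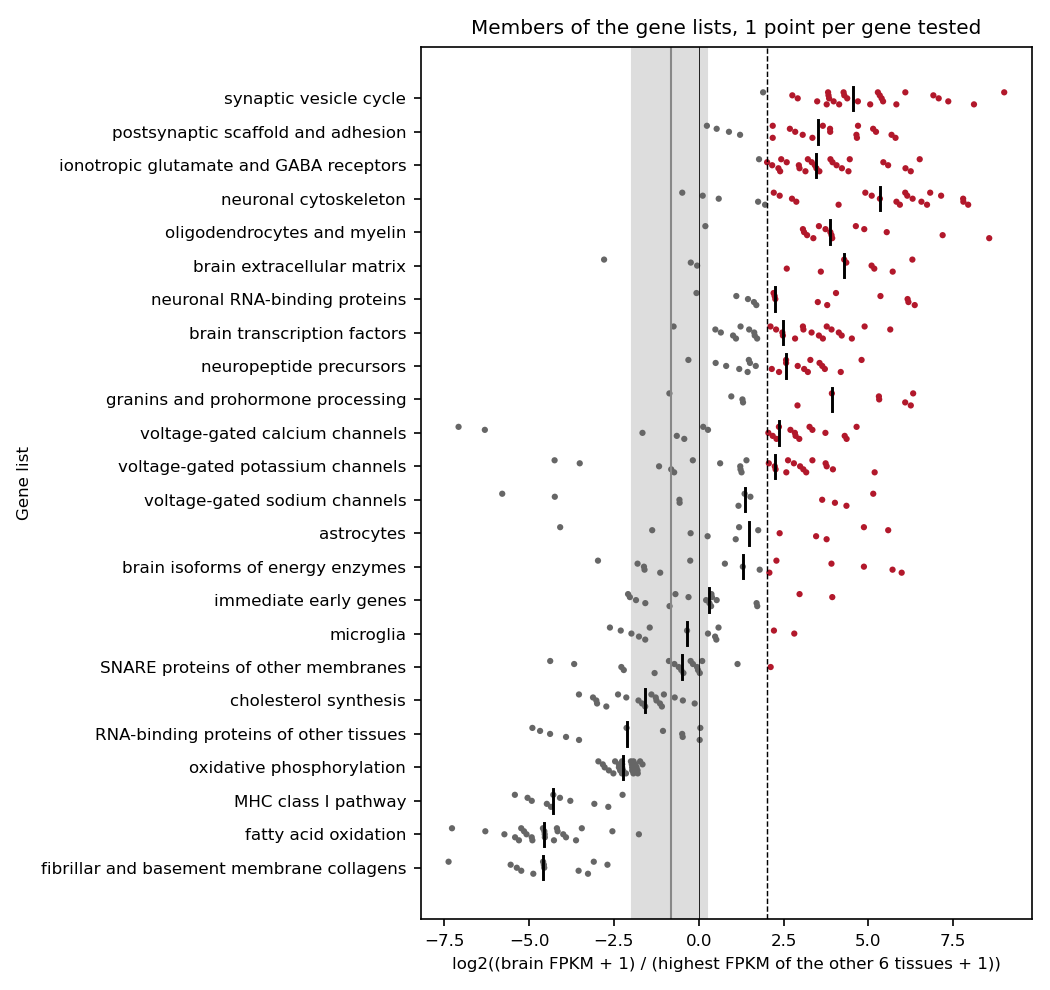
Log2 ratio of FPKM + 1 between brain and the highest of the other 6 tissues, for the tested members of 24 gene lists (1 point per gene, black bar at the list median, red from the 4-fold limit on). The gray band spans the middle quartiles of all genes tested, from -1.96 to 0.24, and the gray line marks their median of -0.82. Synaptic, receptor, cytoskeletal and myelin genes lie mostly to the right of the dashed limit. Genes of fatty acid oxidation, MHC class I and collagens have their medians to the left of the band. So, by less, do oxidative phosphorylation (-2.23) and RNA-binding proteins of other tissues (-2.13).

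Myelin genes were nearly as brain-restricted as synaptic genes. 14 of 15 were higher in brain, against 7.75% of all genes tested. Their median log2 ratio was 3.88, against -0.82 over all genes tested. *Mobp* had 431 FPKM, *Cnp* 82.3, *Mal* 80.6, *Mag* 63.4 and *Mog* 14.3. *Mog*, *Opalin* and *Olig2* are listed at 0 in all other libraries. *Mbp*, in contrast, was above 7 FPKM in both adipose libraries and in small intestine. The myelin regulator *Myrf* had 23.8 FPKM in brain and 20.7 in small intestine and was the member outside the limit. Of the precursor markers, *Gpr17*, *C1ql1* and *Pcdh15* were higher in brain with 5.54, 4.48 and 3.67 FPKM. *C1ql1* was just past the limit with a log2 ratio of 2.08, and its call was lost under median-ratio scaling. *Pdgfra* had 8.22 FPKM in brain against 12.7 in white adipose tissue, where fibroblasts express it, and *Cspg4* had 1.93 in brain.

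Astrocyte markers differed among themselves. 5 of 12 were higher in brain, against 7.75% of all genes tested, and brain was the highest library for 9, against 29.7%. The 5 were *Gfap*, the glutamate transporter *Slc1a2* with 192 FPKM, the aldolase *Aldoc* with 229.8, *Ntsr2* with 32.6 and the connexin *Gjb6* with 12.6. *Slc1a2* was second in liver with 35.9 FPKM, and its call was lost under median-ratio scaling. The other glutamate transporter, *Slc1a3*, had 116 FPKM in brain and 96.8 in white adipose tissue. *Aldh1l1* was highest in liver (247 FPKM against 13.6 in brain), *Gja1* in heart (114 against 43.3) and *Glul*, glutamine synthetase, in brown adipose tissue (465 against 394). Under the TPM scale 7 astrocyte genes were higher in brain, against 2039 of all 18327 genes tested. Under median-ratio scaling 4 were, against 1274.

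Microglia markers, many of which other macrophages also express, were mostly not past the limit. 2 of 13 were higher in brain, against 7.75% of all genes tested, and brain was the highest library for 6, against 29.7%. The 2 were *P2ry12*, the purinergic receptor of resting microglia, with 30.4 FPKM and *Siglech* with 6.83. The complement genes *C1qa*, *C1qb* and *C1qc* had 14.6, 19.3 and 20.5 FPKM in brain and 94.8, 79.3 and 105 in white adipose tissue. *Cx3cr1* had its highest level in brain, at 8.51 FPKM, without passing the limit. *Tmem119* had 4.46 FPKM in brain, 5.49 in white adipose tissue and 5.94 in small intestine. Among 11 genes of the brain endothelium, the glucose transporter *Slc2a1* (25.3 FPKM) and the thyroid hormone transporter *Slco1c1* (5.66) were higher in brain, against 7.75% of all genes tested. *Slco1c1* is listed at 0 in the other 6 tissues. *Mfsd2a*, a lipid transporter of the blood-brain barrier, had 6.98 FPKM in brain and 13.7 in liver, and *Abcb1a*, a drug efflux pump, had 9.39 and 107 in small intestine. *Cldn5*, the tight junction protein of endothelium, had 8.16 FPKM in brain and 19.3 in white adipose tissue. *Pecam1*, which all endothelium expresses, had 5.97 FPKM in brain against between 5.67 in liver and 68.6 in white adipose tissue.

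The markers of brain regions were unequal. *Neurod6* and *Tbr1*, transcription factors of the forebrain, had 28.7 and 22.6 FPKM, and the striatal genes *Rgs9*, *Drd2* and *Drd1* had 34.6, 16.4 and 7.71. *Ppp1r1b*, a phosphatase inhibitor of striatal neurons, had 112 FPKM in brain but 159 in small intestine. Hypothalamic peptides were present, with 26.9 FPKM for *Pmch*, 17.2 for *Hcrt*, 10.8 for *Trh* and 8.79 for *Avp*, all listed at 0 in the other 6 tissues. The brainstem genes *Th*, *Slc6a3* and *Tph2* of monoamine neurons had 5.43, 4.47 and 5.44 FPKM. The cerebellar list was split. *Gabra6* and *Fat2* of granule cells had 0 and 0.149 FPKM in brain, *Cbln3* 0.256 and *Pcp2* of Purkinje cells 0.335, and these 4 stayed below 1 FPKM in all 7 libraries. Of the 6 tested genes, 3 were higher in brain, against 7.75% of all genes tested, and brain was the highest library for 5, against 29.7%. *Calb1*, *Cbln1* and *Zic2* were the genes called higher, with 39.1, 10.3 and 9.03 FPKM, and these are also expressed in other brain regions. The transcription factors *Zic1* and *Neurod1* of granule cells had 10.8 and 3.91 FPKM in brain, against 2.81 in brown adipose tissue and 1.30 in small intestine. *Car8* of Purkinje cells had 4.35 FPKM in brain and 37.5 in liver. All 7 pituitary genes, among them *Gh*, *Prl* and *Pou1f1*, are listed at 0 in brain. Of the choroid plexus list, *Kl* was the member higher in brain, with 3.39 FPKM and a log2 ratio of 2.05, and the call was lost under median-ratio scaling. *Ttr* had 424 in brain and 2882 in liver, and *Aqp1* was lower in brain than in every other library.

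Precursors of neuropeptides were read in brain and, for several, in small intestine. 13 of 21 precursor genes tested were higher in brain, against 7.75% of all genes tested, and brain was the highest library for 20, against 29.7%. *Penk*, the enkephalin precursor, had the highest level with 455 FPKM but was also at 259 in white adipose tissue, and its log2 ratio was 0.81. *Npy* had 123 FPKM in brain and 8.38 in small intestine, *Sst* 109 and 23.7, and *Cck* 59.1 and 9.08, and these 3 are listed at 0 in the other 5 tissues. *Vip* and *Gal* of enteric neurons missed the limit, with 8.10 and 15.2 FPKM in brain and 5.45 and 4.67 in small intestine. *Nts* was highest in small intestine with 4.10 FPKM against 3.13 in brain. Of the granins and processing enzymes, 7 of 11 were higher in brain, and brain was the highest library for 10. The 7 included *Scg2* with 146 FPKM, *Scg3* with 164, *Scg5* with 161, *Vgf* with 81.8 and the prohormone convertase *Pcsk2* with 57.6. *Chga* and *Chgb*, granins that gut endocrine cells also store, had 185 and 409 FPKM in brain and 75.4 and 209.8 in small intestine, and *Pam*, the amidating enzyme, was higher in heart (112) than in brain (61.2).

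Promoter sequences of *Sst*, *Scg2* and *Syn1* are shown because these genes were higher in brain and carry the cAMP response element, a site long known from the *Sst* promoter. They were chosen after the values and sequences were seen. Each runs 5′ to 3′ on the strand of the gene, from 250 bases before the RefSeq transcription start to 30 bases after it, in GRCm38.p6. Capitals mark the letters TGACGTCA of the response element and, in *Scg2* and *Syn1*, the left end of the RE1 element, the site of the repressor REST, which is TCAGCACC or, on the other strand, GGTGCTGA.
*Sst*, chr16:23890815-23891094, minus strand: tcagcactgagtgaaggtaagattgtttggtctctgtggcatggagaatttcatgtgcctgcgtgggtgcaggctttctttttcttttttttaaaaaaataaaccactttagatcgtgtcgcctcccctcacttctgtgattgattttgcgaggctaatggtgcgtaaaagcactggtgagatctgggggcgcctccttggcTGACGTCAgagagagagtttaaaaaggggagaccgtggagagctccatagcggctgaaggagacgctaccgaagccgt
*Scg2*, chr1:79439997-79440276, minus strand: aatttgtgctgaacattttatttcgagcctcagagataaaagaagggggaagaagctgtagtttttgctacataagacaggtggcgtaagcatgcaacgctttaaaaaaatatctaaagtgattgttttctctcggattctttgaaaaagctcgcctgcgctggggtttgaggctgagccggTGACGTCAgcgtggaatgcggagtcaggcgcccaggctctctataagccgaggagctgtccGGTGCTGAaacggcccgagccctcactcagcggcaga
*Syn1*, chrX:20920889-20921168, minus strand: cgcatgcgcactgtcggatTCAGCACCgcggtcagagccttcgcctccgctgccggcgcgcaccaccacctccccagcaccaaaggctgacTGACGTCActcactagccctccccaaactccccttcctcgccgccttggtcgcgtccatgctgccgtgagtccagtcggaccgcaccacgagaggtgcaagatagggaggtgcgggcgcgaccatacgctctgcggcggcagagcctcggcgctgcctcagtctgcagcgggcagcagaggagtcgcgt
The response element starts 48 bases before the transcription start in *Sst*, 68 in *Scg2* and 159 in *Syn1*. The RE1 letters start 231 bases before the start in *Syn1* and 7 in *Scg2*. TGACGTCA, which reads the same on both strands, was found in 1.74% of the 32851 RefSeq promoters of this length, and TCAGCACC on either strand in 1.52%. A promoter was matched for 1044 of the 1421 genes (73.5%) and 12961 of the 18327 tested, which is too few, so a comparison of base content or motifs between these sets is void and was not made. A match is only a match of letters.

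Many regulators of transcription and of RNA were higher in brain as well. 17 of 27 brain transcription factors were higher in brain, against 7.75% of all genes tested. Brain was the highest library for 26 of the 27, against 29.7%. *Myt1l*, which holds neuronal identity, had 55.1 FPKM in brain and 0.120 in small intestine. *Sox2*, *Olig2*, *Neurod6* and *Zic2* are listed at 0 in all other libraries. *Mef2c* was highest in muscle with 98.5 FPKM against 58.5 in brain, and *Bcl11b* had 13.2 in brain and 9.13 in small intestine. Of the neuronal RNA-binding proteins 10 of 15 were higher in brain, and of those of other tissues 0 of 11. With 7.75% of all genes tested higher, 0 of 11 does not set that list apart. The splicing regulators *Celf4*, *Rbfox3* and *Elavl3* had 127, 118 and 83.8 FPKM in brain and at most 0.791 elsewhere. Within the Rbfox family *Rbfox3* was higher in brain by a log2 ratio of 6.37, *Rbfox1* had 57.8 FPKM in brain and 60.6 in muscle, and *Rbfox2* had 127 in brain and 40.4 in white adipose tissue. *Ptbp2*, the neuronal polypyrimidine tract protein, had 15.6 FPKM in brain, about as much as *Ptbp1* with 15.3, while *Ptbp1* exceeded *Ptbp2* in every other library. *Esrp1* and *Esrp2* of epithelia had 0 and 0.00949 FPKM in brain.

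Several noncoding and imprinted transcripts reached high levels in brain. *Snhg11* had 413 FPKM, *Meg3* 314, *Rian* 99.2, *Miat* 51.2 and *Mirg* 40.8, and the imprinted coding genes *Snrpn* and *Peg3* had 272 and 111. These 7 of 16 were higher in brain, against 7.75% of all genes tested. *Meg3*, *Rian* and *Mirg* lie in one imprinted region and overlap other transcripts. *Malat1*, a ubiquitous nuclear RNA, had 106 FPKM in brain and up to 122 elsewhere, and *Neat1* had 11.5 in brain and 159 in white adipose tissue. *Nnat* was highest in white adipose tissue with 831 FPKM against 104 in brain, and *H19* in muscle with 96.0 against 0.584. Of 17 immediate early genes, which respond within minutes to activity, *Arc* (60.5 FPKM) and *Egr4* (6.85) were higher in brain, against 7.75% of all genes tested. *Egr1* had 42.9 FPKM in brain and 32.6 in brown adipose tissue, *Fos* had 10.5 in brain and 17.5 in small intestine, and *Nr4a1* was highest in brown adipose tissue (82.9 against 27.1).

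For several steps of energy metabolism 1 isoform was far above its counterpart in brain, though not for aldolase. Among pairs that carry out the same step, neuronal enolase *Eno2* had 192 FPKM in brain and muscle enolase *Eno3* 6.07, while *Eno3* had 2083 in muscle. Creatine kinase *Ckb* had 500.0 FPKM in brain and *Ckm* 1.89. Aldolase *Aldoc* had 229.8 FPKM in brain, against 469 for the entry of *Aldoa* with the higher mean. Hexokinase *Hk1* had 54.8 FPKM in brain and *Hk2* 0.533, and the insulin-responsive glucose transporter *Slc2a4* had 0.310 in brain against 106 in muscle and 25.3 for *Slc2a1* in brain. 6 of 15 brain isoforms were higher in brain, against 7.75% of all genes tested. 0 of 17 muscle and liver isoforms were, too few genes to tell from that share. Their median log2 ratio was -6.35, against -0.82 over all genes tested. Several brain isoforms were higher elsewhere: *Ldhb* in heart (527 FPKM against 239), *Pkm* in muscle (934 against 304), *Pygb* in heart (137 against 38.5) and *Ckmt1* in small intestine (769 against 97.1).

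Most genes of fatty acid oxidation had their lowest level in brain. Brain was the lowest of the 7 libraries for 20 of 23 genes, against 7.21% of all genes tested, and 8 were lower by the 4-fold rule, against 0.180%. Their median was 10.011 FPKM in brain, 29.995 in tibialis anterior muscle, 36.6 in small intestine, 55.4 in white adipose tissue, 82.3 in liver, 104 in heart and 154 in brown adipose tissue. The 8 genes span the mitochondrial spiral and its electron transfer: *Acadvl*, *Acadl*, *Acads*, *Hadh*, *Acaa2*, *Decr1*, *Etfa* and *Etfdh*. *Hadh*, the short-chain hydroxyacyl dehydrogenase, had 5.48 FPKM in brain, 343 in brown adipose tissue, 139 in heart, 111 in small intestine, 92.7 in white adipose tissue, 82.3 in liver and 37.9 in tibialis anterior muscle. *Acads* had 1.35 FPKM in brain and at least 12.1 elsewhere. *Cpt1b*, the muscle form of the entry enzyme, is listed at 0 in brain, and *Cpt1a* had 4.74 FPKM in brain, above 1.29 in muscle. The peroxisomal enzyme *Acaa1a* was not lowest in brain, with 12.2 FPKM there and 7.81 in muscle. With TPM 2 genes were lower by the 4-fold rule and brain was lowest for 19, and with median-ratio scaling the counts were 6 and 22. Over all 18327 genes tested brain was lowest for 1321, for 739 with TPM and for 2051 with median-ratio scaling.

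Genes of lipid uptake were divided. *Cd36*, the fatty acid translocase, had 0.0174 FPKM in brain and between 4.56 and 906 elsewhere, and *Fabp4* of adipocytes had 0.324 in brain and at least 9.77. Both were lower by the 4-fold rule. *Fabp7*, the fatty acid binding protein of glia, and *Lrp8*, a receptor for reelin and apolipoprotein E, were higher in brain with 21.031 and 9.91 FPKM. *Apoe*, the main lipid carrier of brain, had 1756 FPKM there, below 21983 in liver and 7333 in white adipose tissue. Nuclear genes of oxidative phosphorylation were also lowest in brain for 19 of 27, against 1321 of all 18327 genes tested (7.21%). None was past the limit, and their median of 56.3 FPKM was close to 65.2 in liver and 68.9 in white adipose tissue. With TPM brain was lowest for 7 of them, against 739 of all genes tested. With median-ratio scaling it was lowest for 12, against 2051.

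**Figure D5:**
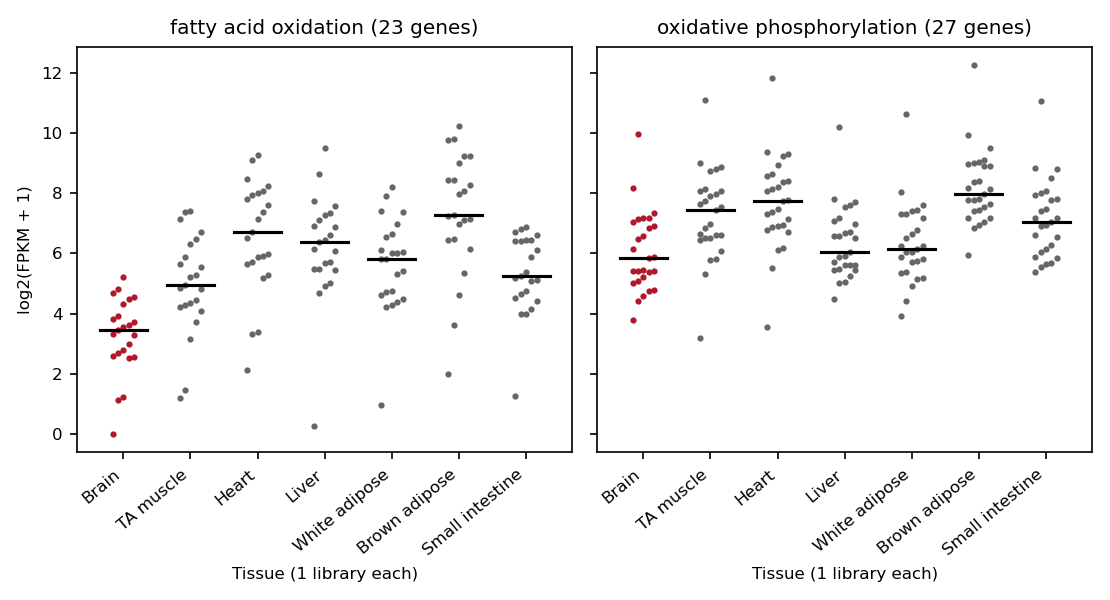
Levels as log2(FPKM + 1) of 23 genes of fatty acid oxidation (left) and 27 nuclear genes of oxidative phosphorylation (right) in the 7 libraries, 1 point per gene, with brain in red and a black bar at the median. The median of the left panel corresponds to 10.011 FPKM in brain and 29.995 in muscle, the next lowest, whereas in the right panel brain, at 56.3, is close to liver and white adipose tissue.

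Sterol and myelin lipid genes were mixed. None of 19 cholesterol synthesis genes was past either limit, against 7.75% of all genes tested higher and 0.180% lower. Brain was the highest library for 0 of them and the lowest for 0, against 29.7% and 7.21%. Their median was 11.1 FPKM in brain, below 53.9 in liver and 28.1 in small intestine, and above 8.19 in white adipose tissue, 3.68 in brown adipose tissue, 1.97 in heart and 1.25 in muscle. *Hmgcs1*, the synthase at the start of the pathway, had 72.6 FPKM in brain, near 71.5 in liver and 79.1 in small intestine. *Cyp46a1*, the neuronal enzyme that clears cholesterol from the brain, had 87.3 FPKM in brain and at most 1.77 elsewhere. *Ugt8a* and *Fa2h*, which make the galactolipids of myelin, were higher in brain with 7.89 and 15.1 FPKM.

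Among the 33 genes lower in brain, the lowest log2 ratio to the lowest other tissue was that of *Aqp1*, a water channel of endothelium and epithelia, which had 1.17 FPKM in brain, 162 in brown adipose tissue, 132 in white adipose tissue, 107 in tibialis anterior muscle, 78.7 in heart, 30.8 in liver and 29.3 in small intestine. *Gstm2*, a glutathione transferase, followed with a log2 ratio of -3.31, then the complement component *C3* at -3.19, *Fabp4* at -3.02, *Cd74* at -2.97 and *Sqor*, which oxidizes sulfide, at -2.94. The ratio was -2.80 for *Tcim*, -2.78 for the purine transporter *Slc43a3*, -2.77 for the alcohol dehydrogenase *Adh1* and -2.69 for *Plin2*, a coat protein of lipid droplets. *Cd74* and *H2-Ab1* of MHC class II had 1.98 and 1.63 FPKM in brain, and at least 22.4 and 14.6 elsewhere. *C3* had 0.691 FPKM in brain and 2027 in liver.

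Genes of antigen presentation by MHC class I were low in brain. With FPKM as deposited 0 of 11 passed the limit. With 0.180% of all genes tested lower, that count does not set them apart. Brain was the lowest library for 7 of them, against 1321 of all 18327 genes tested (7.21%). It was the lowest for 5 with TPM, against 739, and for 11 with median-ratio scaling, against 2051. *H2-K1* had 9.70 FPKM in brain and at least 27.5 elsewhere, and was past the limit under median-ratio scaling, and *B2m*, its light chain, had 52.4 in brain and 44.0 in muscle. The gene family shares sequence, so reads of the *H2* genes may be split among members. Matrix genes were divided by kind. 8 of 11 genes of brain matrix were higher, such as the proteoglycans *Bcan*, *Cspg5* and *Ncan* with 88.2, 82.9 and 45.1 FPKM and the link protein *Hapln4* with 24.4. *Ptprz1* and *Tnr*, which perineuronal nets and glia carry, had 38.8 and 20.986 FPKM. *Tnc* had 0.342 FPKM in brain and 8.30 in small intestine. None of 12 collagens was higher, too few genes to tell from the 7.75% of all genes tested. Their median log2 ratio to the highest other tissue was -4.58, against -0.82 over all genes tested. Brain was the lowest library for 1 of the 12, against 7.21% of all genes tested. That gene, *Col3a1*, had 0.991 FPKM in brain, 5.24 in liver and 330.3 in white adipose tissue, and *Col1a1* had 1.03, 0.533 and 58.7.

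The genes higher in brain had longer spans than the genes tested as a whole. Of the 1303 protein-coding genes among them 30.6% spanned 100 kb or more of the genome, against 14.4% of the 15466 protein-coding genes tested, and their median span was 39728 bases against 24184.5. Of all tested coding genes of that size 17.9% were higher in brain, and of those under 10 kb 7.24%. The median span of the coding genes higher in each of the other tissues lay between 15232 bases in muscle and 25591 in white adipose tissue. *Syt1*, for example, spans 513333 bases. Protein-coding genes made up 91.7% of the genes higher in brain and 84.4% of all tested, and long intergenic noncoding RNAs were 46 of 1421 and 561 of 18327. Of the higher genes 5.42% lie on the X chromosome, against 3.10% of all tested. Exons of 500 higher genes (35.2%) overlap those of another gene on either strand, and their values may hold reads of both.

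The highest of the other tissues, where any was above 0, was white adipose tissue for 425 of the genes higher in brain, small intestine for 356, heart for 156, brown adipose tissue for 122, muscle for 93 and liver for 77. Across all genes tested, which are not independent replicates, the Pearson correlation of log2(FPKM + 1) with brain was 0.616 for heart, 0.611 for brown adipose tissue, 0.596 for white adipose tissue, 0.581 for muscle, 0.443 for small intestine and 0.439 for liver.

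The limit of 4-fold divides a continuum. Among genes with at least 20 FPKM in brain, those just inside were *Socs5* at a log2 ratio of 2.004, *Rgs6* at 2.009, *Pld3* at 2.010, *Atp6v1a* at 2.012 and *Gabra3* at 2.016. Those just outside were *Lrrc4c* at 1.99995, *Agap3* at 1.997, *Rogdi* at 1.975, *Igip* at 1.967 and *Cnrip1* at 1.963. *Rogdi* had 61.3 FPKM in brain against 14.9 in white adipose tissue, and *Pld3* had 94.8 against 22.8.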

How the data were processed

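RNA sequencing libraries of 7 tissues from WT mice, 1 per tissue, and 3 WT libraries each of brown and inguinal white adipose tissue were used. Per the study's methods, polyadenylated RNA was sequenced, reads were filtered with fastp and Bowtie2, aligned without strand to GRCm38 with HISAT2, and quantified on Ensembl release 90 with StringTie. The submitters' processing notes list Bowtie2 2.4.1, HISAT2 2.1.0 and Cuffdiff. The authors deposited FPKM, and no counts were used here. The table of inguinal adipose tissue also holds the authors' fold changes, mean levels and p-values, which were not used.

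One line per Ensembl identifier was kept, which left 55573 of 55860 lines. Ratios were taken on the log2(FPKM + 1) scale with Python 3.11.15, numpy 2.4.6 and pandas 2.3.3, over genes with at least 1 FPKM in at least 1 of 7 libraries, with a limit of 4-fold. No test was possible. Absolute depth is unknown. Steps in low values put the depth of the other libraries at between 0.946 and 1.09 of that of brain. Only a narrow range around equal depth was searched, so a larger difference could not have been found. Each estimate rested on 20 to 38 genes, against a median of 6 to 12 across that range. The code was tested on simulated data. Gene positions came from GENCODE release M21, and promoters from RefSeq.

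Named genes were *Snap25*, *Mbp* and *Gfap*, members of 48 gene lists, the 10 highest levels and 10 largest ratios among genes higher in brain (ratios from 20 FPKM on), the 10 lowest ratios, and 5 genes on either side of the limit. Of 605 list entries, 602 were found. Members and lists were chosen with earlier results of these data known. Pseudocounts, filters, scalings, limits and left-out tissues were varied. Some members of the lists are counted but not reported by name here.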

Additional observations from a re-analysis of the deposited data

How the results depend on the processing

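The 1421 genes higher in brain became 2117 with a pseudocount of 0.1 and 2176 with 0.01. They became 2743 at a 2-fold limit, 753 at an 8-fold limit and 2581 against the median of the other tissues. The count was 2039 with TPM, 1274 with median-ratio scaling, 1161 with a mean of at least 1 FPKM, and lay between 1450 and 1622 with 1 tissue left out. The 33 genes lower in brain became 99 and 213 with these pseudocounts, 159 at 2-fold, 4 at 8-fold and 473 against the median. The number was 59 without muscle, 53 without liver and 50 without small intestine, 25 with TPM and 47 with median-ratio scaling. Between 18 and 23 lists, 19 as reported, had most or an equal share of their tested members higher in brain under the alternatives. Some moves were fixed by the rule. A smaller pseudocount, a 2-fold limit, the median as reference or a left-out tissue can only add genes. An 8-fold limit or the filter on the mean can only remove them. Those counts are therefore no check of the calls. Why the other counts moved was not tested. Of the 35 genes named by level, ratio or limit, 5 moved with a pseudocount of 0.1, 5 with TPM and 6 with median-ratio scaling, and none changed sign. Of the 237 list members higher in brain, 8 were not past the limit with median-ratio scaling. TPM added 31 and lost none, but it could lose none. It multiplied every other library by between 0.553 and 0.937 relative to brain. Differences of 4-fold or more within 3 replicates took 0.400% of genes in brown and 0.801% in inguinal white adipose tissue. No paired analysis was possible because each tissue had 1 library and no test was made. With 1 library per tissue, neither the spread between brains nor, at unknown depth, the precision of low values can be given.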

Other observations

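Genes lower in brain by the 4-fold rule that belong to no list described above included *Apool*, a protein of mitochondrial cristae, *Eif4ebp1*, a repressor of translation, *Myl12a*, a light chain of nonmuscle myosin, *Dcn*, a matrix proteoglycan, and the complement genes *Serping1* and *C1s1*. *Eif4ebp1* had 2.09 FPKM in brain, 191 in white adipose tissue, 104 in brown adipose tissue, 42.7 in liver, 42.0 in heart, 33.5 in tibialis anterior muscle and 16.9 in small intestine. *Dcn* had 4.24 FPKM in brain, 564 in white adipose tissue, 102 in heart, 78.3 in brown adipose tissue, 63.9 in tibialis anterior muscle, 40.1 in liver and 32.6 in small intestine. *Serping1* had 3.77 FPKM in brain and at least 22.2 elsewhere. These names were chosen after their values were seen. Of the genes of the muscle factor the study is about, *Ostn*, which encodes musclin, had 0.164 FPKM in brain and 7.43 in tibialis anterior muscle. The natriuretic peptide receptors *Npr1*, *Npr2* and *Npr3* had 1.12, 12.7 and 1.51 FPKM in brain. *Tfrc*, the transferrin receptor, had 26.0 FPKM in brain, and *Nppc*, the precursor of C-type natriuretic peptide, had 1.82.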
